A study of Mus musculus with 9 samples.

Results

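Neutrophils carry their antimicrobial and matrix-degrading proteins in granules, and 10 genes for proteins of the specific and gelatinase granules (Ltf, Camp, Ngp, Lcn2, Mmp8, Mmp9, Cd177, Olfm4, Hp and Chi3l3) were followed here through 9 RNA-seq libraries of mouse bone marrow cells. The genes were taken by name as established products of these granules, with earlier results of these data known. All 10 were among the 23337 genes of the count files, and all 10 were among the 12553 genes that passed the filter on low counts. CD11b+ cells, which in marrow are mainly granulocytes and monocytes, were selected with magnetic particles from the femurs and tibias of young male C57BL/6 mice after lysis of red blood cells. The study asked how extracellular vesicles (EVs) from an enzalutamide-resistant (EnzR) line of human CWR-R1 prostate cancer cells change these cells, and whether high-density lipoprotein-like nanoparticles (HDL NPs), which draw cholesterol out of target cells, alter that response. A group of 3 mice received PBS by tail vein every other day from day 1 to day 5. A group of 3 received EnzR EVs on the same days, each time 10 µg of EV protein in 100 µl. The last 3 mice received the same EnzR EVs and, every other day from day 0 to day 4, HDL NPs given in the labels as 1 µM. Marrow was taken the day after the last injection, and all mice were of the same strain. There was no group given HDL NPs alone and none given EVs of non-malignant cells, so a difference between groups is that of the whole treatment.

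Granule proteins are made in a fixed order as a neutrophil matures in the marrow. Azurophil granules fill first, in promyelocytes, specific granules follow in myelocytes and metamyelocytes, and gelatinase granules are filled in band and segmented cells, so the transcripts mark successive stages of the lineage. The proteins made at the specific granule stage bind iron, retinoids or siderophores, kill bacteria or digest collagen, and their genes are under C/EBP family factors, above all C/EBPε.

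The genes were on 6 chromosomes of the mouse genome (GRCm38, the assembly of mm10; GENCODE M21). Ltf (chr9:111019271-111042767), Camp (chr9:109847379-109849617) and Ngp (chr9:110419747-110423012) shared a stretch of chromosome 9, with 570.1 kb and 8 protein-coding genes between Camp and Ngp and 596.3 kb and 20 protein-coding genes between Ngp and Ltf. Mmp8 (chr9:7558456-7568485) was on the same chromosome but 102 Mb or more away from them. The others were Lcn2 (chr2:32384633-32388252) and Mmp9 (chr2:164940780-164955850) on chromosome 2, Chi3l3 (chr3:106147554-106167564), now named Chil3, on chromosome 3, Cd177 (chr7:24743983-24760311) on chromosome 7, Hp (chr8:109575128-109579172) on chromosome 8 and Olfm4 (chr14:79984081-80023139) on chromosome 14. The longest coding transcript ranged from 758 bases in 4 exons for Camp to 3175 bases in 13 exons for Mmp9, and its GC content from 42.1% for Olfm4 to 56.2% for Hp.

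Promoters were searched because C/EBP and PU.1 are known regulators of the granulocyte lineage. RefSeq promoters on GRCm38.p6, from 250 bases before to 50 bases after the start of the gene, were at hand for 8 of the 10 genes, all but Mmp9 and Hp. The C/EBP motif TTGCNNAA, read on both strands, was in 4 of the 8 (Ltf, Ngp, Lcn2 and Mmp8) and in 10.8% of the 32851 promoters in the table. The PU.1 motif GAGGAA, also read on both strands, was in 5 of the 8 (Ltf, Lcn2, Mmp8, Cd177 and Olfm4) and in 28.3% of all promoters. Counted from the RefSeq start, the first base of the C/EBP match lay 75 bases upstream for Ltf, 138 and 11 bases upstream for Ngp, 216 upstream for Lcn2 and 19 upstream for Mmp8. The RefSeq starts of Ltf, Camp, Ngp, Lcn2 and Olfm4 lie inside the genes as GENCODE draws them, so the matches of Lcn2, the nearer match of Ngp and the PU.1 match of Olfm4 fall within the annotated gene, and only the farther match of Ngp is in the stretch printed here. A match of these letters is a description of the window and not a binding site. The stretches of the Ltf, Ngp and Mmp8 promoters that precede the annotated gene are shown 5′ to 3′ on the strand of the gene, from chr9:111019042-111019270, chr9:110419558-110419746 and chr9:7558179-7558428, all on the plus strand, with the C/EBP letters in capitals.
Ltf: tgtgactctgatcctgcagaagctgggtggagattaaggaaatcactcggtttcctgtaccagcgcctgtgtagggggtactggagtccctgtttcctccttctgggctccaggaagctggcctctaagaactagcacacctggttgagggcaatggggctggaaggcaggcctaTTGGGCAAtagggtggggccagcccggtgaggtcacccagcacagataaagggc
Ngp: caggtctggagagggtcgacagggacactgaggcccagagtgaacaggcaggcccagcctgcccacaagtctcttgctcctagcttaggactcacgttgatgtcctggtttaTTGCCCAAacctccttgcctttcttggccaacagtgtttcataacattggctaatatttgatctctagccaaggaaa
Mmp8: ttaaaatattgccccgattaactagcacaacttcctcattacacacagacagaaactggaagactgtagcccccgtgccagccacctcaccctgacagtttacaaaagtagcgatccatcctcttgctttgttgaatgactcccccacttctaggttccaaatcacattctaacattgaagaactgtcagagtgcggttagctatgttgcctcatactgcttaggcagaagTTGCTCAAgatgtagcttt

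The libraries differed in depth and in the share of counts on Rn45s, the precursor of ribosomal RNA. Total counts were 6006087, 16381679 and 15972757 in the PBS mice, 2575776, 18110561 and 8554487 in the EnzR EV mice, and 15602936, 16611934 and 13231038 in the EnzR EV + HDL NP mice. Rn45s held 20.3%, 1.57% and 1.17% in the PBS mice, 42.7%, 1.15% and 14.2% in the EnzR EV mice, and 0.763%, 0.657% and 2.87% in the EnzR EV + HDL NP mice. PBS replicate 1, EnzR EVs replicate 1 and EnzR EVs replicate 3 were therefore the 3 libraries with over 10% of counts on Rn45s, and also the 3 with the lowest totals. None of the EnzR EV + HDL NP libraries was among them, so this property of the libraries was unevenly spread over the groups. PBS replicates 2 and 3 were the most alike within a group, with a chi-square of 4.48 per gene, still above sampling noise, and were kept as separate mice.

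Markers placed the cells in the granulocyte and monocyte lineages. TMM-scaled CPM (TMM CPM) of 6 neutrophil markers, S100a8, S100a9, Csf3r, Cxcr2, Retnlg and Mmp8, summed to 20985, 70966 and 68821 in the PBS mice, 7521, 78349 and 26041 in the EnzR EV mice, and 69223, 98328 and 41859 in the EnzR EV + HDL NP mice. S100a9, a calcium-binding protein of the neutrophil cytosol, was the most abundant, from 2229 to 51363 TMM CPM. The 3 libraries rich in Rn45s were the 3 lowest in this sum, and in S100a8, S100a9 and Mmp8, itself a granule gene followed here. Retnlg, Csf3r and Cxcr2 did not follow throughout. In EnzR EVs replicate 3, Retnlg (3405) was above PBS replicate 3 (3291). Csf3r (635) and Cxcr2 (509) there were slightly above EnzR EVs + HDL NPs replicate 1 (632 and 504). Ly6g was not among the gene symbols counted. The summed markers of monocytes ranged from 1308 to 2532 TMM CPM, led by F13a1, those of eosinophils from 1326 to 3266, led by Prg2, and those of macrophages from 459 to 1025, led by Vcam1. Basophil markers reached 212 (Prss34 leading), platelet markers 94.6 (Itga2b), stromal markers 74.3 (Cxcl12), T and NK markers 73.5 (Nkg7), erythroid markers 62.3 (Slc4a1), dendritic markers 40.1 (Itgax) and B lineage markers 22.1 (Cd79b). Hbb-b1 and Hba-a1 were at 0 counts in all 9 libraries, and Cd3e was at 0 in 5 of them. Slc4a1, Alas2 and Cd3d, of the same lists, had counts in every library, up to 553, 447 and 106. The 0 counts therefore do not show that erythroid or T cells were absent, and their cause was not tested. As these are bulk libraries, fewer cells of a type and less RNA per cell cannot be told apart for any gene described here.

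Ltf encodes lactoferrin, the iron-binding protein of specific granules. Its level was 12264.5, 17952 and 16260.2 in the PBS mice, 8523, 19328 and 16162 in the EnzR EV mice, and 14166, 21533 and 17390.4 in the EnzR EV + HDL NP mice, in TMM CPM. EnzR EVs replicate 1 was the lowest and EnzR EVs + HDL NPs replicate 2 the highest library, and the ranges of all 3 groups overlapped. Camp encodes the cathelicidin from which an antimicrobial peptide is released, and its TMM CPM was 6985, 7770.3 and 7051 in the PBS mice, 3677, 7522 and 7142 in the EnzR EV mice, and 5471, 7877 and 5179 in the EnzR EV + HDL NP mice. The PBS mice lay within a narrow band, EnzR EVs replicate 1 was again lowest, and EnzR EVs + HDL NPs replicates 1 and 3 lay under all PBS mice while replicate 2 lay above them. Ngp, neutrophilic granule protein, a cystatin-like protein, stood at 12780.2, 14578 and 12576 in the PBS mice, 9208, 15028.5 and 14969 in the EnzR EV mice, and 11205, 15272 and 15496 in the EnzR EV + HDL NP mice, in TMM CPM. Apart from EnzR EVs replicate 1 and EnzR EVs + HDL NPs replicate 1 the libraries were close to each other, and no group separated from another.

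Lcn2 encodes lipocalin 2, which binds bacterial siderophores, and varied far more between mice. Its TMM CPM was 1675, 4084 and 3874 in the PBS mice, 782, 4923 and 2915 in the EnzR EV mice, and 3322, 4793 and 3724 in the EnzR EV + HDL NP mice. The 3 Rn45s-rich libraries were the 3 lowest, and the highest over the lowest library was 6.30-fold. Mmp8, neutrophil collagenase, which cleaves fibrillar collagen, was at 1035, 2994 and 2638 in the PBS mice, 542, 2401 and 1262 in the EnzR EV mice, and 2561, 3458 and 2149 in the EnzR EV + HDL NP mice, in TMM CPM. It had the widest range of the 10 genes, 6.38-fold, with the same 3 libraries at the bottom, and the remaining EnzR EV mouse fell among the mice of the other groups. Chi3l3, the chitinase-like lectin Ym1, was at 2929, 5753 and 5417 in the PBS mice, 1727, 6792 and 4574 in the EnzR EV mice, and 6822, 7207 and 5301 in the EnzR EV + HDL NP mice, in TMM CPM. Here too the same 3 libraries were the lowest, and EnzR EVs replicate 2 lay among the EnzR EV + HDL NP mice. Chi3l3 has a near-identical neighbour, Chi3l4, at 0.528 to 1.44 TMM CPM, and a more distant relative, Chi3l1, at 223 to 536, so reads shared between copies make the absolute level of Chi3l3 uncertain.

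Cd177 encodes a surface glycoprotein of neutrophils that is also stored in specific granules, and its TMM CPM was 2143, 2424 and 2228 in the PBS mice, 2002, 2585 and 2577 in the EnzR EV mice, and 1746, 2702 and 2294 in the EnzR EV + HDL NP mice. The range was the narrowest of the 10 genes, 1.55-fold, with EnzR EVs + HDL NPs replicate 1 lowest and replicate 2 of the same group highest. Olfm4, olfactomedin 4, which is known to be made by a subset of neutrophils, was the least abundant at 208, 162 and 140.4 in the PBS mice, 148, 163 and 160.3 in the EnzR EV mice, and 127, 192 and 165 in the EnzR EV + HDL NP mice, in TMM CPM. The EnzR EV mice were almost level with each other and lay inside the range of both other groups, and PBS replicate 1, low for Lcn2, Mmp8 and Chi3l3, was the highest library. Hp encodes haptoglobin, which binds free hemoglobin, and was at 1071, 1245 and 1162 in the PBS mice, 984, 1553 and 1389 in the EnzR EV mice, and 997, 1379 and 1031 in the EnzR EV + HDL NP mice, in TMM CPM. EnzR EVs replicates 2 and 3 were the highest libraries and replicate 1 the lowest, so the EnzR EV range enclosed all other mice.

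Mmp9, gelatinase B, gives the gelatinase granules their name and is the latest of the 10 products in maturation. It was at 2492, 3395 and 2959.5 in the PBS mice, 1981, 3059.6 and 2974 in the EnzR EV mice, and 2133, 3547 and 3118 in the EnzR EV + HDL NP mice, in TMM CPM. The lowest libraries were EnzR EVs replicate 1 and EnzR EVs + HDL NPs replicate 1, the highest was EnzR EVs + HDL NPs replicate 2, and the groups overlapped throughout.

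**Figure D1:**
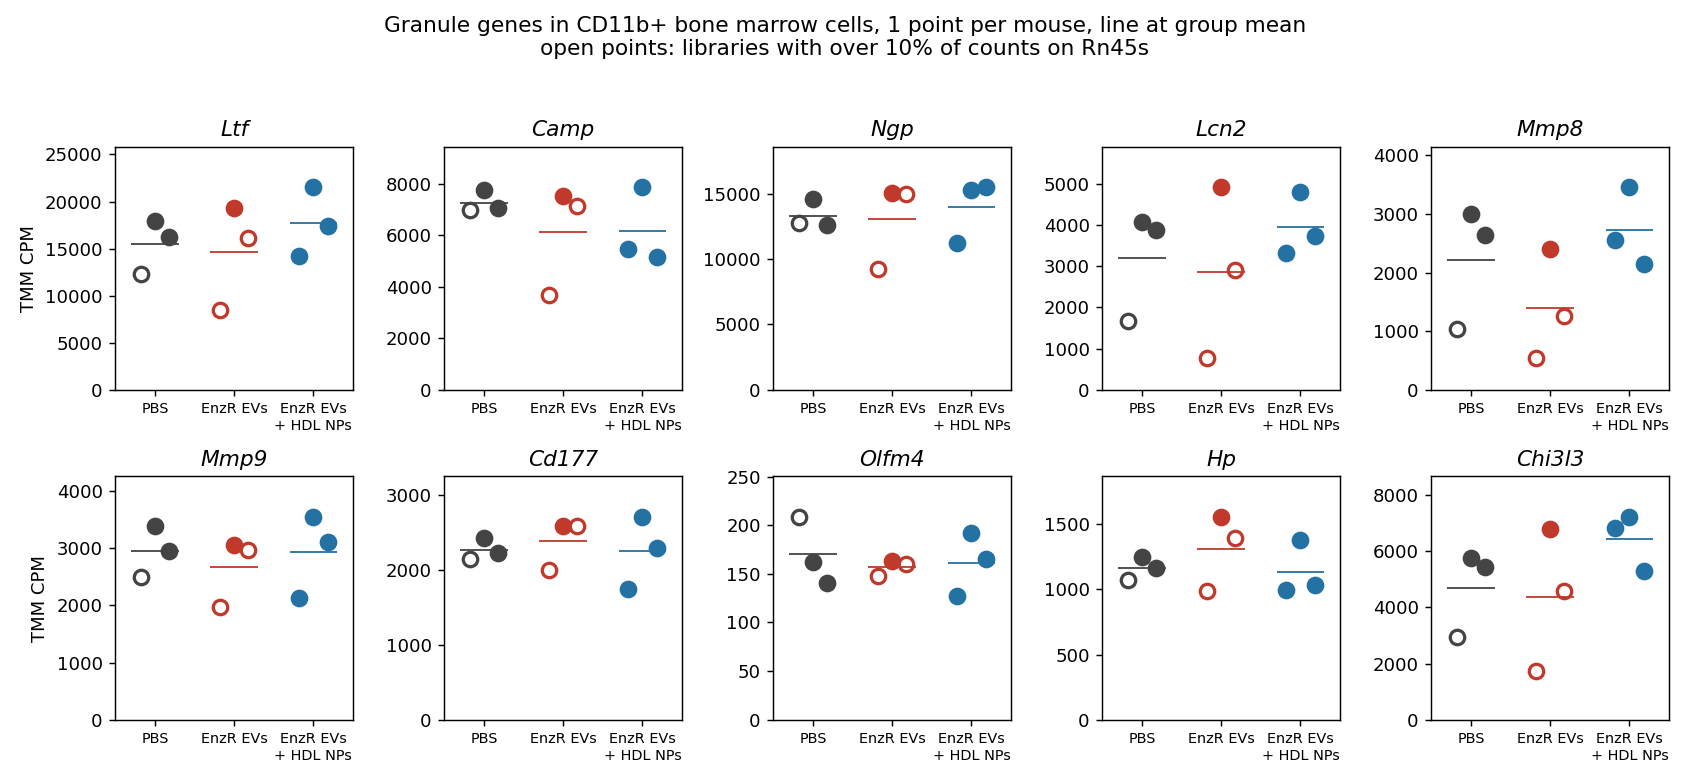
TMM CPM of each of the 10 granule genes, with 1 point per mouse, 3 mice per group, a line at the group mean and axes that start at 0. Open points are the 3 libraries with over 10% of counts on Rn45s, which are the 3 lowest for Lcn2, Mmp8 and Chi3l3 and do not sit together at either end for Cd177, Hp and Olfm4.

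Summed over the 10 genes, the level was 43582, 60357 and 54307 in the PBS mice, 29576, 63355 and 54125 in the EnzR EV mice, and 48549, 67960.4 and 55848.5 in the EnzR EV + HDL NP mice, in TMM CPM. The group means were 52749 ± 8495 for PBS, 49019 ± 17459 for EnzR EVs and 57453 ± 9804 for EnzR EVs + HDL NPs (SD, n = 3 mice each), closer to each other than the mice of a group. As a share of all counts, the 10 genes took 4.12%, 6.41% and 5.94% in the PBS mice, 2.09%, 6.57% and 5.35% in the EnzR EV mice, and 5.53%, 6.86% and 6.04% in the EnzR EV + HDL NP mice. With Rn45s taken out of the total, the shares were 5.17%, 6.51% and 6.01% in the PBS mice, 3.65%, 6.65% and 6.24% in the EnzR EV mice, and 5.57%, 6.91% and 6.22% in the EnzR EV + HDL NP mice. EnzR EVs replicate 1 was the lowest library either way, while EnzR EVs replicate 3 moved into the middle of the others once Rn45s was left out.

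Levels can be set against each other between genes only per length of transcript. As medians over the 9 mice, in TMM CPM per kilobase of the longest coding transcript, the order was Ngp (11929.8), Camp (9302), Ltf (5928), Lcn2 (4070.3), Chi3l3 (3519.9), Mmp8 (990.3), Mmp9 (937), Hp (864), Cd177 (845) and Olfm4 (58.0). Ngp was above Camp, Camp above Ltf, Ltf above Lcn2, Chi3l3 above Mmp8 and Cd177 above Olfm4 in 9 of 9 mice. The other neighbours in the order did not differ beyond their spread: Lcn2 was above Chi3l3 in 6 of 9 mice, Mmp8 above Mmp9 in 5, Mmp9 above Hp in 4 and Hp above Cd177 in 7. Per kilobase of all annotated exons merged, Lcn2 and Chi3l3 changed places, as did Hp and Cd177. Olfm4 thus stood apart at the low end.

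The 10 genes split by how much they varied between mice. Over the 9 libraries the coefficient of variation was 45.8% for Mmp8, 41.1% for Lcn2 and 35.6% for Chi3l3, and between 13.4% (Cd177) and 24.4% (Ltf) for the other 7. Over the 6 libraries with at most 10% of counts on Rn45s it was between 12.4% (Ngp) and 17.5% (Camp) for all 10 genes. Mmp8, Lcn2 and Chi3l3 thus varied more widely than the others only with the 3 Rn45s-rich libraries included, which lay lower and also differed from each other. The mean of the 3 Rn45s-rich libraries was 0.350 of the mean of the 6 for Mmp8, 0.435 for Lcn2 and 0.495 for Chi3l3, against 0.693 for Ltf, 0.818 for Mmp9, 0.871 for Camp, 0.878 for Ngp, 0.935 for Hp, 0.962 for Cd177 and 1.09 for Olfm4. For Mmp8, Lcn2 and Chi3l3 each of the 3 Rn45s-rich libraries lay below each of the 6, which held for 17.9% of all genes tested. The transcripts of these 3 genes had a GC content of 43.4%, 54.0% and 45.0% and a length of 2425, 915 and 1539 bases. Over the 10 genes, the log2 ratio of Rn45s-rich to other libraries had r = 0.328 with GC content and 0.124 with log length. S100a8 and S100a9 varied in the same way and more widely, S100a8 between 1745.5 and 38307 TMM CPM. The part of depth, of RNA quality and of cell composition in this split was not tested.

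**Figure D2:**
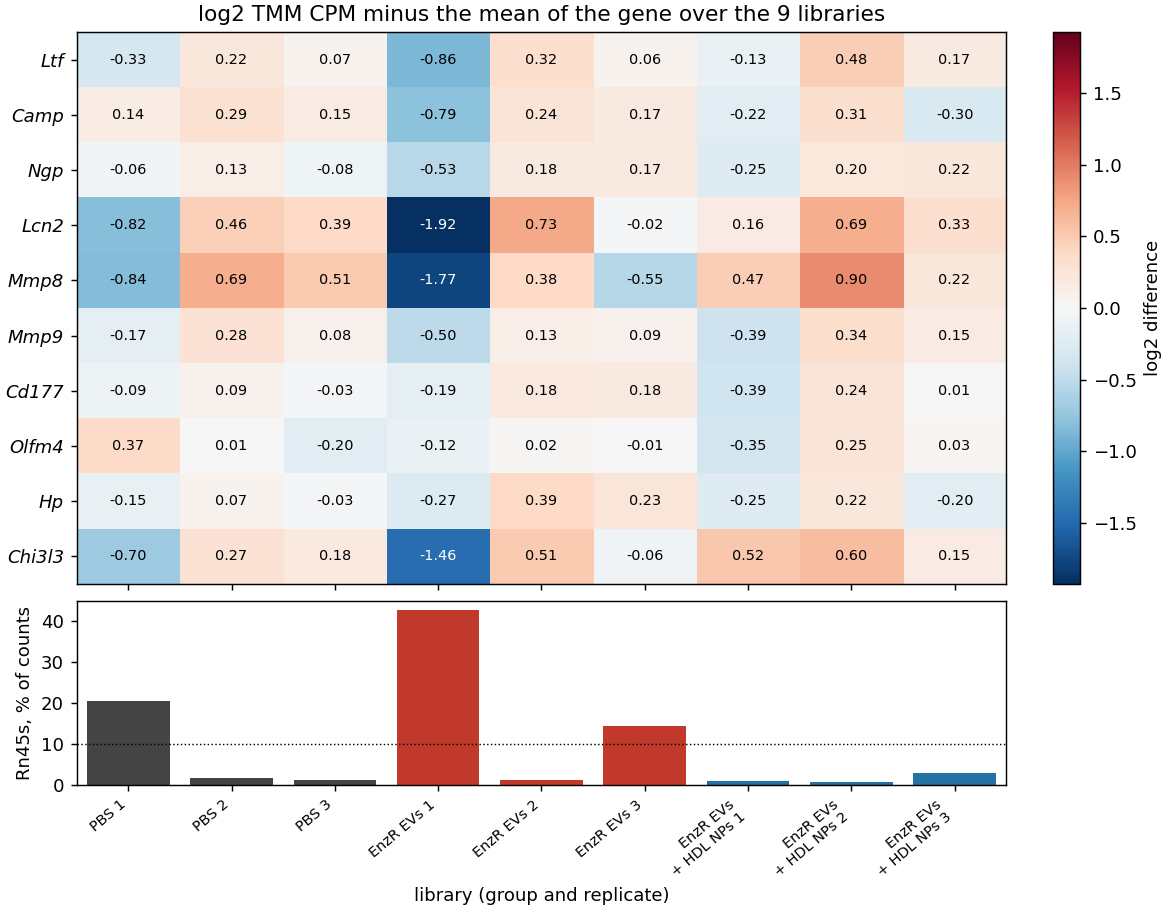
Upper panel: log2 TMM CPM of each granule gene in each library minus its mean over the 9 libraries, where blue is below and red above that mean. Lower panel: percent of counts on Rn45s in the same libraries, with a dotted line at 10%; the deepest blue is in EnzR EVs replicate 1, at 42.7% Rn45s, for Lcn2, Mmp8 and Chi3l3.

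Across mice the genes moved largely together. Of the 45 pairs, 42 had a positive Pearson r of log2 TMM CPM over the 9 libraries, with a median of 0.690, and 43 had one over the 6 libraries with at most 10% Rn45s, with a median of 0.672. These are descriptions over libraries that share depth and Rn45s differences, with no test, and no value for pairs of all genes is given. Against the mean of the other 9 genes, Ltf had r = 0.991, Lcn2 0.957, Chi3l3 0.888, Mmp9 0.859, Mmp8 0.854, Ngp 0.849, Camp 0.803, Hp 0.663, Cd177 0.620 and Olfm4 0.139 over the 9 libraries. Over the 6, Olfm4 had r = 0.856 and Cd177 0.929, whereas Chi3l3 had 0.268 and Mmp8 0.505. Mmp8 and Chi3l3 thus followed the other genes mainly through the Rn45s-rich libraries, and Olfm4 and Cd177 followed them more closely outside these. Of 7770 further genes with a mean of at least 10 TMM CPM, the 5 whose log2 level was most like the mean of the 10 over the 9 libraries were Pfkfb4 (r = 0.992), Nfam1 (0.991), Sertad3 (0.988), Sri (0.987) and Trappc10 (0.987). The 3 least alike were Prmt3 (r = −0.987), Tcf4 (−0.976) and Neurl1b (−0.974).

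The comparison of EnzR EVs with PBS asks what the vesicles changed in the marrow cells. None of the 10 granule genes passed an adjusted p of 0.05 by edgeR (0 of 10, against 0 of 12553 genes tested, 0%), and DESeq2 called 0 and limma 0 of the 10. At an unadjusted p under 0.05 the count was 0 of the 10 by edgeR, 0 by DESeq2 and 0 by limma, against 436 of all genes by edgeR (1.55% of those tested higher and 1.92% lower). That number over all genes was 153 without PBS replicate 3 and 2120 without EnzR EVs replicate 2. The groups did not separate for any of the 10 genes, while 3.43% of all genes tested lay higher and 4.52% lower in every EnzR EV mouse than in every PBS mouse. The median log2 fold change was −0.11 over the 10 genes and −0.03 over all genes. Mmp8 was the furthest from 0, at −0.66 ± 0.50 (SE), with a 95% confidence interval from −1.78 to 0.45 (edgeR adjusted p = 0.928) and a two-sided exact permutation p of 0.400 for 3 mice against 3, where 0.10 is the smallest possible. Taken by replicate number, each EnzR EV mouse was below the PBS mouse of that number for Mmp8, and with the number as a block in edgeR its value was −0.75 (unadjusted p = 0.0464, adjusted p = 0.739). Shares of all genes with such a pattern, or under 0.05 in the blocked fit, are not given here. The others were at −0.25 (Camp), −0.16 (Lcn2), −0.14 (Mmp9), −0.11 (Olfm4), −0.11 (Chi3l3), −0.08 (Ltf), −0.03 (Ngp), 0.08 (Cd177) and 0.18 (Hp), each with an interval that included 0. The intervals were widest for Lcn2 (−1.35 to 1.03) and narrowest for Olfm4 (−0.55 to 0.32).

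Without the 3 Rn45s-rich libraries, which leaves PBS replicates 2 and 3 and EnzR EVs replicate 2, 6 of the 10 values for EnzR EVs against PBS changed sign, while leaving out 1 mouse at a time kept Mmp8 at −1.27 to −0.27. Lcn2 went from −0.16 to 0.31, Chi3l3 from −0.11 to 0.29, Ltf from −0.08 to 0.18, and Mmp8 from −0.66 to −0.23. The median of the 10 was then 0.15. In that fit the lone EnzR EV library is assumed to vary like the libraries of the other groups, and 0 of the 10 genes passed the threshold.

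The comparison of EnzR EVs + HDL NPs with PBS shares the PBS mice with the one above. By edgeR 0 of the 10 genes passed (0 of 12553 tested, 0%), and DESeq2 called 0 and limma 0 of the 10. At an unadjusted p under 0.05 the count was 0 of the 10 by each of edgeR, DESeq2 and limma, against 268 of all genes by edgeR (1.02% of those tested higher and 1.12% lower). Over all genes it was 142 without EnzR EVs + HDL NPs replicate 3 and 270 without EnzR EVs + HDL NPs replicate 1. No granule gene separated the groups, where 6.96% of genes tested lay higher and 6.21% lower in every EnzR EV + HDL NP mouse. The median log2 fold change was 0.03 over the 10 genes and −0.01 over all genes. Chi3l3 was the furthest from 0, at 0.46 ± 0.43 (SE) with an interval from −0.49 to 1.40, and its mean was 6444 ± 1008 against 4699.6 ± 1543 TMM CPM in PBS (SD, n = 3). 2 of 3 EnzR EV + HDL NP mice lay above all PBS mice for this gene, with an exact permutation p of 0.300. Lcn2 (0.30), Mmp8 (0.29), Ltf (0.19) and Ngp (0.07) were also above 0, and Camp (−0.24), Olfm4 (−0.08), Hp (−0.03), Cd177 (−0.01) and Mmp9 (−0.01) below. Without the 3 Rn45s-rich libraries Chi3l3 was at 0.21, Lcn2 at −0.01 and Mmp8 at −0.05, so the values of the latter pair rested on PBS replicate 1.

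The comparison of EnzR EVs + HDL NPs with EnzR EVs asks what the nanoparticles added to the response. It held the largest values of the granule genes, yet by edgeR 0 of the 10 passed (0 of 12553 tested, 0%), and DESeq2 called 0 and limma 0 of the 10. At an unadjusted p under 0.05 the count was 0 of the 10 by edgeR, 0 by DESeq2 and 1, Mmp8, by limma. Of all genes it was 979 of 12553 by limma, 1847 of 18794 by DESeq2 and 1325 by edgeR (3.58% of those tested higher and 6.97% lower). The edgeR number was 659 without EnzR EVs replicate 1 and 3734 without EnzR EVs replicate 2. No granule gene separated the groups, where 8.99% of genes tested lay higher and 8.58% lower in every EnzR EV + HDL NP mouse. The median log2 fold change was 0.12 over the 10 genes and 0.03 over all genes. Mmp8 was at 0.96 ± 0.51 (SE), with means of 2723 ± 669 and 1402 ± 937 TMM CPM (SD, n = 3) and an interval from −0.16 to 2.08. Its adjusted p by edgeR was 0.472, its exact permutation p 0.200, and 2 of 3 EnzR EV + HDL NP mice lay above all EnzR EV mice. Chi3l3 was at 0.56 ± 0.43 (SE) with an exact permutation p of 0.200, and Lcn2 at 0.46 ± 0.54 (SE) with 0.500. Ltf (0.27), Mmp9 (0.13), Ngp (0.10), Olfm4 (0.03) and Camp (0.01) were nearer to 0, and Cd177 (−0.09) and Hp (−0.21) were below it.

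The genes furthest from 0 in that comparison, Mmp8, Chi3l3 and Lcn2, were those lowest in the Rn45s-rich libraries, and 2 of the 3 EnzR EV libraries but 0 of the 3 EnzR EV + HDL NP libraries were Rn45s-rich. Against EnzR EVs replicate 2 alone, Mmp8 was at 0.18, Chi3l3 at −0.08 and Lcn2 at −0.32, and 7 of the 10 values changed sign. The median of the 10 was then −0.12. Leaving out 1 mouse at a time moved the values both ways, over 0.57 to 1.57 for Mmp8, 0.17 to 1.01 for Chi3l3 and 0.0044 to 1.08 for Lcn2, all above 0. In these data the Rn45s share and the contrast of the groups cannot be told apart beyond that single library.

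**Figure D3:**
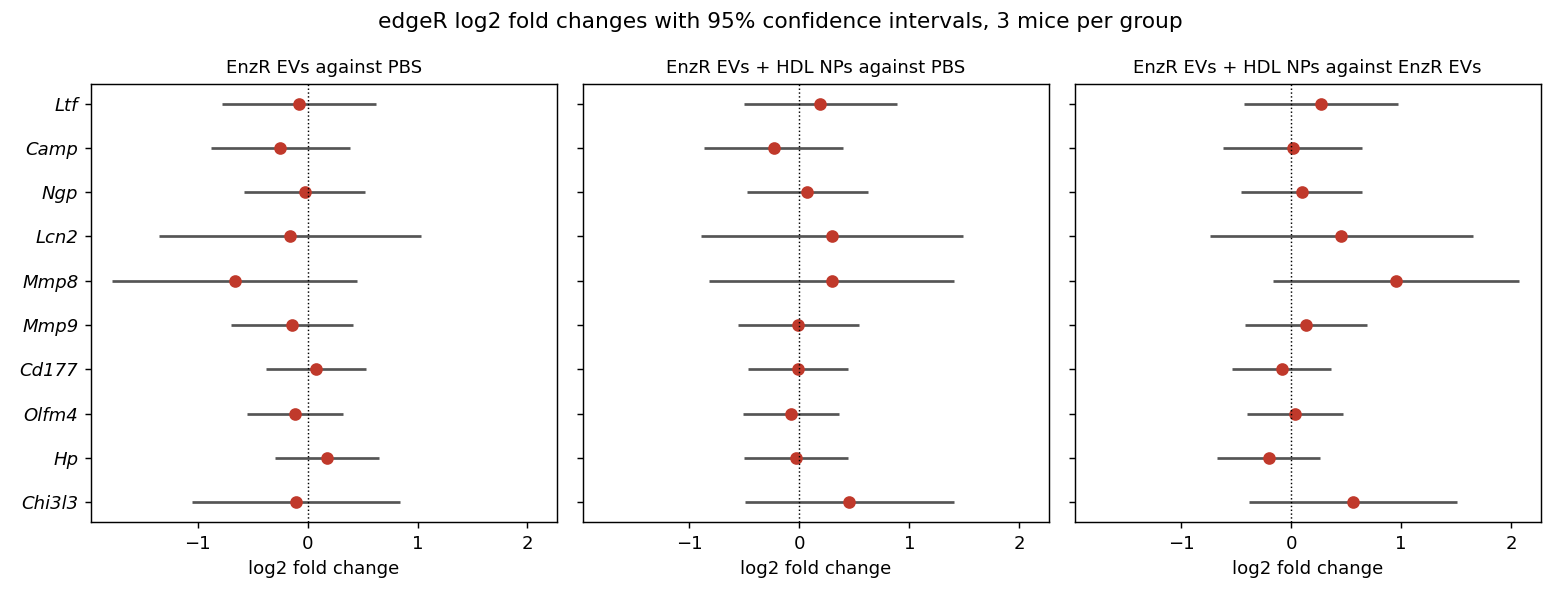
edgeR log2 fold changes of the 10 granule genes in the 3 comparisons of the groups (points) with 95% confidence intervals (lines), 3 mice per group. All 30 intervals include 0, and they are widest for Lcn2, Mmp8 and Chi3l3.

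**Figure D4:**
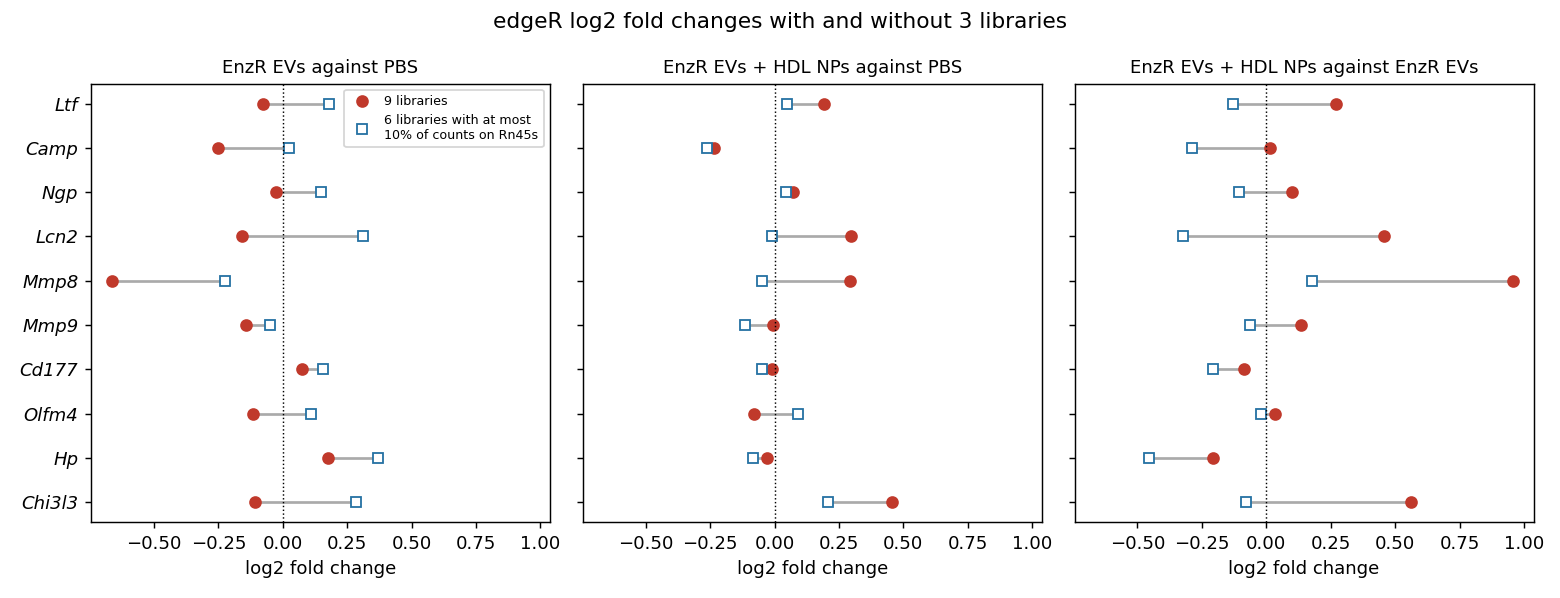
edgeR log2 fold changes of the 10 granule genes with all 9 libraries (filled circles) and with the 6 libraries that have at most 10% of counts on Rn45s (open squares), joined by a line for each gene. For EnzR EVs against PBS and for EnzR EVs + HDL NPs against EnzR EVs the squares lie on the other side of 0 from the circles for 6 and 7 genes, and Mmp8 keeps its side in both.

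Other genes of the granules and of the lineage were followed as lists, and by edgeR 0 genes of any list passed an adjusted p of 0.05 in any comparison. Counts at an unadjusted p under 0.05 are to be read against the shares of all genes tested, 1.55% higher and 1.92% lower for EnzR EVs against PBS (the first comparison), 1.02% and 1.12% for EnzR EVs + HDL NPs against PBS (the next) and 3.58% and 6.97% for EnzR EVs + HDL NPs against EnzR EVs (the last). Beside the 10, 35 other genes of neutrophil granules and secretory vesicles were tested of 38 counted. Their median log2 fold change was −0.23 for EnzR EVs against PBS, 0.07 for EnzR EVs + HDL NPs against PBS and 0.24 for EnzR EVs + HDL NPs against EnzR EVs. At an unadjusted p under 0.05 there were 1 higher and 1 lower in the first comparison, 0 higher and 0 lower in the next and 2 higher and 3 lower in the last. Lyz2, the lysozyme of myeloid cells, was the most abundant at 7585, 10345 and 9136 in the PBS mice, 3702, 9528 and 6736 in the EnzR EV mice, and 8016, 10931 and 7530.1 in the EnzR EV + HDL NP mice, in TMM CPM, with the same low EnzR EVs replicate 1 as Ltf. Cybb, the catalytic subunit of the phagocyte oxidase that sits in the membrane of specific granules, was at 1027 to 3693 TMM CPM. It was lowest in the 3 Rn45s-rich libraries, as Lcn2, Mmp8 and 17.9% of all genes tested were. Retnlg, a resistin-like secreted protein of neutrophils, ranged only from 2273 to 3604.

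Azurophil granule genes, most of them made a stage earlier than the specific granule genes in maturation, were tested for 9 of 10 counted. Their median log2 fold change was 0.10 for EnzR EVs against PBS, −0.46 for EnzR EVs + HDL NPs against PBS and −0.32 for EnzR EVs + HDL NPs against EnzR EVs. At an unadjusted p under 0.05 there were 1 higher and 0 lower in the first comparison, 0 higher and 2 lower in the next and 0 higher and 3 lower in the last, where 6.97% of all genes were lower. In the last comparison 4 of 9, Srgn among them, were lower in every EnzR EV + HDL NP mouse than in every EnzR EV mouse. This held for 8.58% of all genes. Mpo, myeloperoxidase, was at 1209, 838 and 1004 in the PBS mice, 1673, 1065 and 1189 in the EnzR EV mice, and 1048, 439 and 536 in the EnzR EV + HDL NP mice, in TMM CPM. It was highest in EnzR EVs replicate 1, where 8 of the 10 granule genes were lowest. Not all azurophil genes were high in that library, as Elane was at 165 TMM CPM there, below all PBS mice. The 3 highest libraries of Mpo were the Rn45s-rich ones, none of them an EnzR EV + HDL NP mouse. Their part in the difference of Mpo between groups was not tested, and the share of all genes highest in them is not given here. Mpo was lowest in EnzR EVs + HDL NPs replicates 2 and 3. These 2 libraries were also the lowest in the eosinophil sum, through Prg2, in the basophil sum, through Prss34 and Mcpt8, and in the T and NK cell sum, through Nkg7, but not in the sums of monocytes, macrophages, erythroid cells, platelets, dendritic cells or stroma, and in the B lineage sum only replicate 3 was lowest. In EnzR EVs + HDL NPs replicates 1 to 3 the eosinophil markers summed to 3149, 1326 and 1628, the basophil markers to 146, 30.4 and 28.5, and the T and NK markers to 42.5, 24.9 and 27.5 TMM CPM, and whether these move with Mpo was not tested. Single markers did not all follow the sums. For EnzR EVs + HDL NPs against EnzR EVs, 4 of 5 eosinophil, 4 of 5 basophil and 3 of 4 T and NK markers tested were above 0. The log2 fold change of Mpo between EnzR EVs + HDL NPs and EnzR EVs was −0.96 ± 0.32 (SE; edgeR adjusted p = 0.461), with an exact permutation p of 0.1, the smallest possible. Elane, neutrophil elastase, was at −0.63 ± 0.30 and Srgn, the proteoglycan that packs granule proteins, at −0.24 ± 0.14, neither past the adjusted threshold.

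Of 13 regulators of granulocyte maturation tested, the median log2 fold change was 0.07 for EnzR EVs against PBS, −0.06 for EnzR EVs + HDL NPs against PBS and −0.07 for EnzR EVs + HDL NPs against EnzR EVs. There were 0 higher and 2 lower at an unadjusted p under 0.05 in the last comparison, where 6.97% of all genes were lower, and 0 in the others. Csf3r, the receptor of the growth factor G-CSF, was at 371 to 982 TMM CPM, and Stat3, which transmits its signal, at 236 to 374. Cebpb, a C/EBP factor of emergency granulopoiesis, was at 779, 274 and 214 in the PBS mice, 1422, 198 and 542 in the EnzR EV mice, and 128, 224 and 267 in the EnzR EV + HDL NP mice, in TMM CPM. Its highest 3 libraries were the Rn45s-rich ones, the reverse of Lcn2 and Mmp8. Cebpe, which encodes C/EBPε and was named after its values were seen, was at 85.4, 191 and 187 in the PBS mice, 43.9, 205 and 140.2 in the EnzR EV mice, and 158, 216 and 135 in the EnzR EV + HDL NP mice, in TMM CPM. It was lowest in EnzR EVs replicate 1 and PBS replicate 1, while EnzR EVs replicate 3 was above EnzR EVs + HDL NPs replicate 3. Cebpa and Cebpd, named after their values were seen as well, were highest in the 3 Rn45s-rich libraries, as Cebpb was. Csf3r and Stat3 were not, and the share of all genes highest in these libraries is not given here. Among receptors, partners and inhibitors of the granule proteins, 9 of 13 were tested, with medians of −0.20 for EnzR EVs against PBS, −0.13 for EnzR EVs + HDL NPs against PBS and −0.05 for EnzR EVs + HDL NPs against EnzR EVs, and at an unadjusted p under 0.05 there were 0 higher and 0 lower in the first comparison, 0 higher and 1 lower in the next and 0 higher and 1 lower in the last. Cd44, which can hold Mmp9 at the cell surface, was at 525 to 1084 TMM CPM, Lrp1, which clears Mmp9 complexes, at 247 to 623, and Timp2, an inhibitor of metalloproteinases, at 76.3 to 145.

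Genes of late neutrophils (19 tested) had medians of −0.03 for EnzR EVs against PBS, 0.06 for EnzR EVs + HDL NPs against PBS and 0.18 for EnzR EVs + HDL NPs against EnzR EVs. Those at an unadjusted p under 0.05 were 1 higher and 2 lower in the first comparison, 0 higher and 0 lower in the next and 1 higher and 0 lower in the last, where 1.55% of all genes were higher and 1.92% lower in the first. Mxd1, an antagonist of Myc made in mature neutrophils, was the most abundant, at 818 to 2355 TMM CPM, and Ccl6, a chemokine, was at 301 to 784. Genes of proliferating precursors (26 tested) had medians of 0.13 for EnzR EVs against PBS, −0.02 for EnzR EVs + HDL NPs against PBS and −0.17 for EnzR EVs + HDL NPs against EnzR EVs. In the last comparison 8 of these 26 genes were lower in every EnzR EV + HDL NP mouse (as were 8.58% of all genes). Among these 8, Ube2c, Rrm2, Birc5 and Plk1 were higher in each Rn45s-rich library than in all others. Cdk1, Cdc20, Aurka and Cenpa were not, and the share of all genes higher in each Rn45s-rich library is not given here. By unadjusted p under 0.05 there were 4 higher and 0 lower in the first comparison, 0 higher and 0 lower in the next and 0 higher and 6 lower in the last, where 1.55% of all genes were higher in the first and 6.97% lower in the last. Mki67, a nuclear antigen of cycling cells, lay the other way, at 0.54 ± 0.32, while Top2a, DNA topoisomerase II, was at −0.19 ± 0.19 and Kif11, a spindle motor, at −0.13 ± 0.17. Mki67 was lower in each Rn45s-rich library than in all others, as were 17.9% of all genes tested. The median of the 10 granule genes in the last comparison was above 0 with all 9 libraries and below 0 without the Rn45s-rich ones, the lists were not fitted without these libraries, and whether the lists differ from each other or from the 10 genes was not tested.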

How the data were processed

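Per the labels and the study's methods, stranded libraries of total RNA depleted of rRNA were made from CD11b+ marrow cells of 9 mice, and the authors deposited raw counts of reads per gene without normalization. The submitters' processing notes name cutadapt 1.13, STAR, HTSeq 0.6.1p1, DESeq2 and mm10. The strand setting of the counting is not given in the sources used here. The methods give a far higher concentration of HDL NPs than the 1 µM of the labels, and the groups are the same under both.

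The analysis ran in edgeR 4.0.16 (R 4.3.3): default filter on low counts, TMM, a robust quasi-likelihood fit to the 9 libraries with 1 coefficient per group, Benjamini-Hochberg adjustment over all 12553 genes tested, and a threshold of 0.05. Single values are TMM CPM, log2 values have a prior count of 2, and correlations use these log2 values. Total counts ranged from 2575776 to 18110561, so that 3 counts corresponded to 0.166 to 1.16 CPM; reads carry no molecular identifiers, and such limits cover counting error only. Exact permutation tests were two-sided. DESeq2 1.42.0 and limma 3.58.1 were alternatives, with other normalizations, gene filters and sets of libraries. The fit was also run on simulated data, and no statement here rests on that run. Coordinates and lengths came from GENCODE M21 and promoters from RefSeq.

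The members and lists were chosen with earlier results of these data known. Named genes were the 10, the 3 most abundant of each list, the 5 most and 3 least alike in pattern, Rn45s, Chi3l4 and Chi3l1. Cxcr2, Cebpa, Cebpd, Cebpe, Hbb-b1, Hba-a1, Cd3e, Ube2c, Rrm2, Birc5, Plk1, Cdk1, Cdc20, Aurka and Cenpa were added after their values were seen. Labels number the mice of each group 1 to 3; between EnzR EVs and PBS the deviations of same-numbered mice correlated at 0.131 to 0.492, which passes the limit of 0.1 set for treating the numbers as pairs, though mice of different numbers reached 0.429. The fit with the number as a block changed no call among the 10 genes.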

Additional observations from a re-analysis of the deposited data

How the results depend on the processing

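Under every alternative run, 0 of the 10 granule genes passed an adjusted p of 0.05 in each comparison (57 counts). Since no log2 fold change was past the threshold, its sign is not a call, and it changed in 72 of 570 alternative values. Over all genes, the number past the threshold was 0 by edgeR but 14, 2 and 1 by DESeq2 in the comparisons of EnzR EVs with PBS, of EnzR EVs + HDL NPs with PBS and of EnzR EVs + HDL NPs with EnzR EVs. For EnzR EVs against PBS it was also 2 without PBS replicate 1, 5 without the 2 libraries with the lowest totals, 10 without the libraries over 10% Rn45s and 1 with no filter. For the last comparison it was 1 with only the 6 libraries compared and 1 without either of these sets of libraries. Scaling by library size alone moved the median of all genes from −0.027 to −0.18 in the first comparison and from 0.033 to 0.24 in the last. The cause of these shifts was not tested.

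With the mouse number as a replicate block, 0 of the 10 genes passed in each comparison, and 1 gene of all tested passed for EnzR EVs against PBS. Mmp8 was at −0.75 there and at 1.21 between EnzR EVs + HDL NPs and EnzR EVs (edgeR adjusted p = 0.237; range over its alternatives 0.0871 to 0.974). Same-numbered mice correlated at −0.175 to 0.293 between EnzR EVs + HDL NPs and PBS and at −0.0363 to 0.209 between EnzR EVs + HDL NPs and EnzR EVs, so the numbers do not pair these groups, and not every mouse correlated best with its own number.

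Log2 fold changes of EnzR EVs against PBS that changed sign were as follows. Without the libraries over 10% Rn45s: Ltf 0.18, Camp 0.026, Ngp 0.15, Lcn2 0.31, Olfm4 0.11, Chi3l3 0.29. Without the 2 lowest totals: Ltf 0.061, Ngp 0.15, Olfm4 0.10, Chi3l3 0.032. With library size only: Cd177 −0.082. Leaving out each mouse in turn gave Ltf −0.30 to 0.20, Camp −0.40 to 0.017, Ngp −0.14 to 0.18, Lcn2 −0.77 to 0.29, Mmp9 −0.25 to 0.038, Olfm4 −0.23 to 0.050, Chi3l3 −0.55 to 0.28. For EnzR EVs + HDL NPs against PBS, without the libraries over 10% Rn45s: Lcn2 −0.011, Mmp8 −0.048, Olfm4 0.090. Without the 2 lowest totals: Lcn2 −0.011, Mmp8 −0.048, Olfm4 0.090. With library size only: Mmp9 0.029, Cd177 0.033, Hp 0.015. By DESeq2: Mmp9 0.0038, Cd177 4.5e−05. With RLE factors: Mmp9 0.00061. Leaving out each mouse in turn gave Ngp −0.0051 to 0.22, Lcn2 −0.013 to 0.52, Mmp8 −0.049 to 0.58, Mmp9 −0.17 to 0.19, Cd177 −0.17 to 0.15, Olfm4 −0.23 to 0.088, Hp −0.20 to 0.067. For EnzR EVs + HDL NPs against EnzR EVs, without the libraries over 10% Rn45s: Ltf −0.13, Camp −0.29, Ngp −0.11, Lcn2 −0.32, Mmp9 −0.064, Olfm4 −0.021, Chi3l3 −0.079. Without the 2 lowest totals: Ltf −0.011, Camp −0.26, Ngp −0.11, Mmp9 −0.048, Olfm4 −0.013. With library size only: Cd177 0.11. With only the 6 libraries compared: Camp −0.0035. Leaving out each mouse in turn gave Ltf −0.011 to 0.50, Camp −0.25 to 0.17, Ngp −0.11 to 0.23, Mmp9 −0.048 to 0.31, Cd177 −0.26 to 0.057, Olfm4 −0.13 to 0.17.

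With 3 mice per group no exact test can pass below 0.10, and for Lcn2 the confidence interval of EnzR EVs against PBS allows a change of over 2-fold in either direction. The depth of 2575776 counts in EnzR EVs replicate 1 still gave at least 270 counts on each granule gene.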
